A study of Mus musculus with 10 samples.

Results

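The 10 genes described here encode the core machinery of steroid hormone synthesis: the cholesterol carrier Star, the enzymes Cyp11a1, Hsd3b1, Hsd3b6 and Cyp17a1, the electron carriers Fdx1, Fdxr, Por and Cyb5a, and the lipoprotein receptor Scarb1. They were taken by gene symbol from a list drawn up with earlier results of these data known, and all 10 were found once each among the 24306 genes of the count and FPKM tables (FPKM is a fragment count scaled by transcript length and library size). The data are polyA RNA libraries made from whole ovaries of 6-week-old mice whose strain is a mix of C57BL/6 and 129. All 3 groups carried floxed alleles of Rara, Rarb and Rarg, which encode the nuclear receptors for retinoic acid. Rar mutants (n = 3) also carried Sf1-Cre and had 2 wild-type copies of Dmrt1. Dmrt1 het Rar mutants (n = 2) carried Sf1-Cre and 1 floxed Dmrt1 allele. Controls (n = 5) had the floxed Rar alleles and wild-type Dmrt1 without Sf1-Cre. Sf1-Cre uses the Nr5a1 promoter, known to work in gonadal somatic cells and in the adrenal cortex, so Cre activity is not limited to 1 ovarian cell type. Rar mutants and Dmrt1 het Rar mutants are together called Rar-deleted (n = 5), which is the only grouping that gives the 5 replicates per genotype of the series' design text. The study's title asks whether somatic development and function of the ovary need retinoic acid signalling.

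In the ovary, steroids are made from cholesterol by theca, interstitial, granulosa and luteal cells. Scarb1 takes up cholesteryl esters from high-density lipoprotein, and Star moves cholesterol to the inner mitochondrial membrane, a step that luteinising hormone raises acutely. There Cyp11a1 cleaves the side chain to give pregnenolone, with electrons that pass from NADPH through Fdxr and Fdx1. Hsd3b enzymes convert pregnenolone to progesterone, and Cyp17a1 in theca cells converts pregnenolone or progesterone to androgens, with electrons from Por. Cyb5a raises the lyase activity of Cyp17a1. Granulosa cells then aromatise androgens to oestrogens.

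Libraries held 21064856 to 25920131 counts, of which the 10 genes took 0.991% to 2.02%. Gene-level Rarg was 3.63 to 4.65 FPKM in Rar mutants and 4.93 to 5.30 FPKM in Dmrt1 het Rar mutants, against 5.85 to 7.91 FPKM in controls; the levels of Rara and Rarb overlapped between groups, and a gene-level value does not separate deleted from retained exons. Dmrt1 was at or below 0.0840 FPKM everywhere. Markers of the ovary's defining cells (Inha and Amh in granulosa cells, Gdf9 and the zona pellucida genes in oocytes) were present in every library. Rar mutant 3 stood apart in a list of 11 ovulation and cumulus genes (10 of them in the table), with a summed 1288 FPKM, beside 148 in Rar mutant 2, 10.2 in Rar mutant 1, 10.5 to 19.1 in Dmrt1 het Rar mutants and 6.95 to 14.3 in controls. Control 3 had the highest summed level of 7 granulosa cell markers, 3751 FPKM, and the lowest of 5 corpus luteum markers, 143 FPKM. The titles also carry a running number, and the 4 libraries with the lower numbers (Rar mutant 1, both Dmrt1 het Rar mutants and control 1) separated from the 6 with the higher numbers on the axis of largest variance (34.9% of the total). What these numbers stand for is not given, and only 1 control shares the lower numbers with both Dmrt1 het Rar mutants.

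The sequences upstream of 4 of the genes are shown because these genes form 2 natural pairs: the closely related dehydrogenases Hsd3b1 and Hsd3b6, whose levels differed most, and the ferredoxin Fdx1 with its reductase Fdxr, whose ratio varied between libraries. Each is the 250 bases before the start site in RefSeq (GRCm38.p6), written in the direction of transcription, and capitals mark GATAA or its reverse complement TTATC, the core bound by GATA factors.
Hsd3b1: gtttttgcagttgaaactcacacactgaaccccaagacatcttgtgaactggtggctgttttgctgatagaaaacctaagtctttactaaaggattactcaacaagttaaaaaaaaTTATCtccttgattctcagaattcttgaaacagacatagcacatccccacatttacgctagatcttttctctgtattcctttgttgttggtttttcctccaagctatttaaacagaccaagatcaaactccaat
Hsd3b6: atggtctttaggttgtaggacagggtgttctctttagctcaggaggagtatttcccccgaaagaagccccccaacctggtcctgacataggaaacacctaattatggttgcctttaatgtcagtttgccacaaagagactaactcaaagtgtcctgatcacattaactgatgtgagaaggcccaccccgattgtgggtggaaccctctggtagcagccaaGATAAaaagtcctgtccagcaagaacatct
Fdx1: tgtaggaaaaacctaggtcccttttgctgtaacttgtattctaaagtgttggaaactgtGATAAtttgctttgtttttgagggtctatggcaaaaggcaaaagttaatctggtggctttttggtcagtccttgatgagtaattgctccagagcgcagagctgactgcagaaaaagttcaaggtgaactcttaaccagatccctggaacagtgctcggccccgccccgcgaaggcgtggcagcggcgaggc
Fdxr: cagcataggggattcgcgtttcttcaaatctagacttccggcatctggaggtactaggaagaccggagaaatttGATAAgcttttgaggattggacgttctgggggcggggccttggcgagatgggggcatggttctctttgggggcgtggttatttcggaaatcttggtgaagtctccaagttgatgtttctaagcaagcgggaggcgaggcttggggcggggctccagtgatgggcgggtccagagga
These windows lie on the minus strand at chr3:98859795-98860044 (Hsd3b1), chr3:98814444-98814693 (Hsd3b6), chr9:51963603-51963852 (Fdx1) and chr11:115276970-115277219 (Fdxr). GATAA stood on the opposite strand at positions -134 to -130 of Hsd3b1, and on the coding strand at -30 to -26 of Hsd3b6, at -191 to -187 of Fdx1 and at -176 to -172 of Fdxr. Windows were available for 6 of the 10 genes: these 4, Cyp11a1 (2 start sites) and Por, and neither Cyp11a1 nor Por had a match. GATAA occurred on either strand in 22.6% of all 32851 promoter windows of this length. The half-sites AAGGTCA and AAGGCCA, read by the factor Nr5a1, occurred in 9.09% of all windows and in none of the 7 windows of these genes, and the cAMP response sequences TGACGTCA and TGACGCA occurred in 3.23% and in none.

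In control ovaries the 10 genes differed widely in level per transcript length, and Hsd3b1 ranked 12th of all 24306 genes. Hsd3b1 averaged 3844 ± 569.7 FPKM and Cyp11a1, ranked 97th, 867 ± 158 FPKM (SD, n = 5 controls). Cyb5a averaged 244 ± 37.0, Fdx1 219 ± 73.4, Star 135 ± 67.3, Cyp17a1 101 ± 125, Fdxr 91.9 ± 14.1 and Scarb1 69.6 ± 17.0 FPKM, while Por averaged 15.9 ± 3.05 and Hsd3b6 0.350 ± 0.0691 FPKM. The steps from Hsd3b1 to Cyp11a1, from Cyp11a1 to Cyb5a, from Scarb1 to Por and from Por to Hsd3b6 held in each of the 10 libraries. The genes between Cyb5a and Scarb1 did not keep their order: Cyb5a was above Fdx1 in 0 of 3 Rar mutants, 2 of 2 Dmrt1 het Rar mutants and 4 of 5 controls. Hsd3b1 and Cyp11a1 together with Star supplied most of the counts of the set; the share of Star alone ran from 0.757% in control 3 to 35.2% in Rar mutant 3.

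The spread among controls sorted the genes into steady and variable ones. Cyp17a1 had a coefficient of variation of 124% over the 5 controls, above that of 99.6% of the 14911 genes with a control mean of at least 1 FPKM, whose median was 18.6%. Star followed with 49.9%, Fdx1 with 33.5% and Scarb1 with 24.4%. Por (19.2%), Cyp11a1 (18.2%), Fdxr (15.3%), Cyb5a (15.2%) and Hsd3b1 (14.8%) lay near or below the median. Over all 10 libraries the highest value was 119 times the lowest for Cyp17a1, 80.1 times for Star, 15.5 times for Hsd3b6, 4.53 to 4.67 times for Scarb1, Por and Fdx1, and 1.52 times for Cyb5a.

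**Figure D1:**
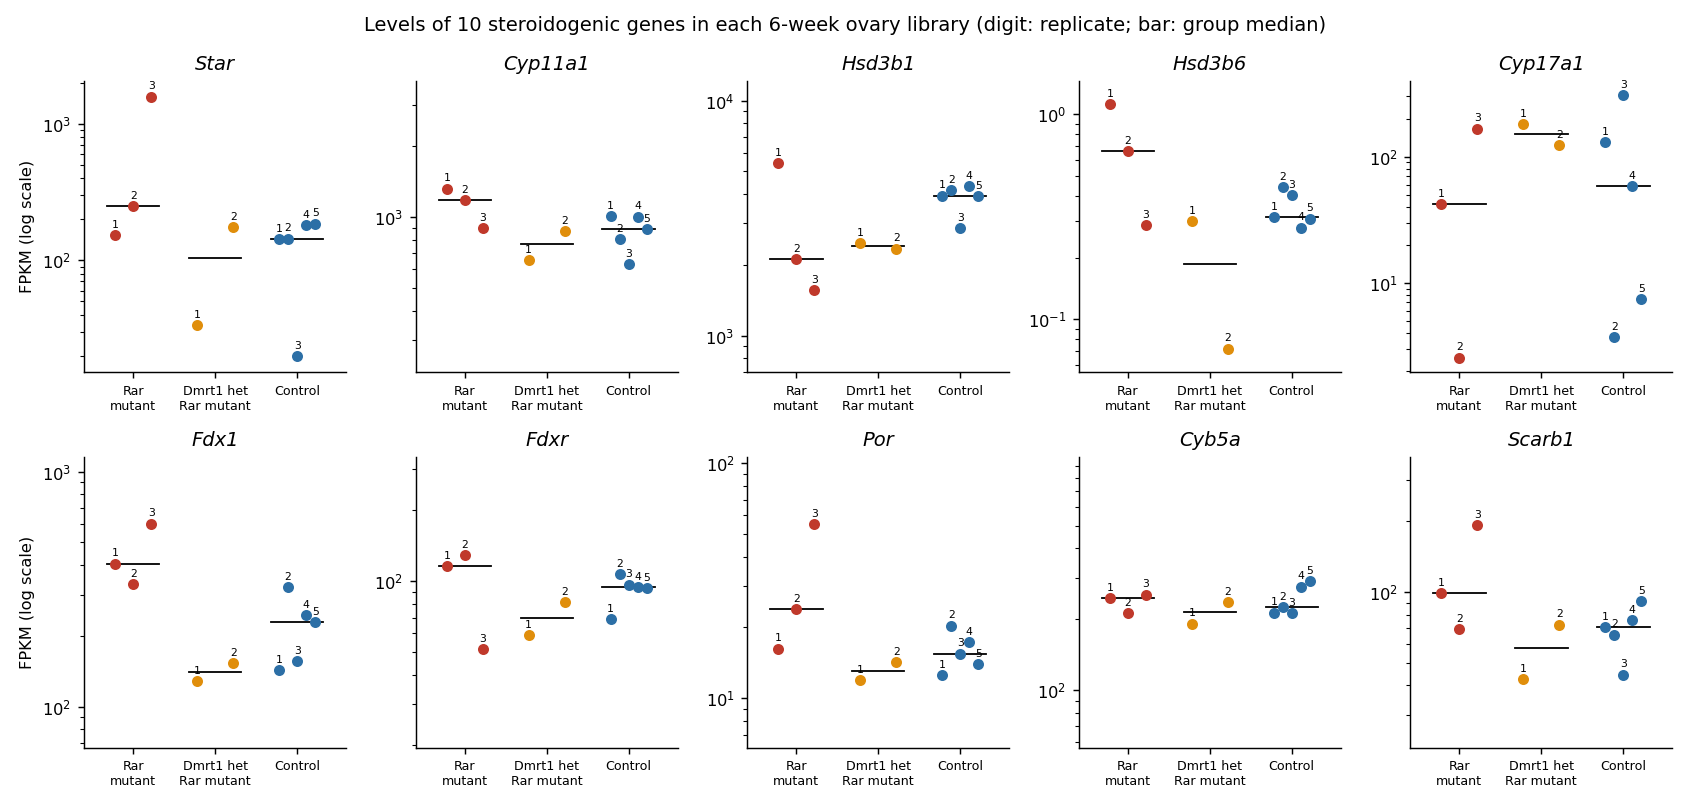
FPKM of each of the 10 genes (log scale) in each library, for Rar mutants (n = 3), Dmrt1 het Rar mutants (n = 2) and controls (n = 5); the digit is the replicate and the bar the group median. Rar mutant 3 is highest for Star, Fdx1, Por and Scarb1, control 3 is lowest for Star, and Cyp17a1 spreads from 2.56 to 305 FPKM within and across groups.

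None of the 10 genes passed an adjusted p of 0.05 in edgeR's quasi-likelihood test (Benjamini-Hochberg over all genes tested) in any of the 4 comparisons. In Rar-deleted against control ovaries 0 of 10 were called, where 0.111% of all 18954 genes tested were (21 genes); in Rar mutants against controls 0 of 10, where 0.00972% of 20570 were; in Dmrt1 het Rar mutants against controls 0 of 10, where 0.0194% were; and in Dmrt1 het Rar mutants against Rar mutants 0 of 10, where 0% were. At an unadjusted p under 0.05 the members counted 0 of 10 for Rar-deleted ovaries, where the share of all genes was 8.47%, and 4 of 10 for Rar mutants, all higher, where it was 9.45%. The counts were 0 of 10 for Dmrt1 het Rar mutants against controls, where it was 17.3%, and 5 of 10 for Dmrt1 het Rar mutants against Rar mutants, all lower, where it was 16.9%. These counts depended on the setting. With a term for the title numbers 3 of 10 were under 0.05 in Rar-deleted ovaries (Fdx1 and Por higher, Hsd3b1 lower), where 2230 of all 18954 genes were. In Dmrt1 het Rar mutants against Rar mutants 3 of 10 were under 0.05 with that term, where 1770 of all 20570 genes were. In Dmrt1 het Rar mutants against controls a replicate block gave 2 of 10, where it gave 1706 of all 20570 genes. In Rar mutants against controls limma gave 2 of 10, where it gave 1818 of all 20570 genes. DESeq2 called Fdx1 alone among the 10 in Rar mutants against controls, where it called 1.54% of all genes, and Fdx1 alone in Dmrt1 het Rar mutants against Rar mutants, where it called 2.58%; it called no member in the other 2 comparisons, and limma on log2 FPKM called none in any. The median log2 fold change of the 10 was 0.57 in Rar mutants against controls (all genes, -0.02), -0.32 in Dmrt1 het Rar mutants against controls (-0.02), -0.80 in Dmrt1 het Rar mutants against Rar mutants (-0.01) and 0.31 in Rar-deleted ovaries against controls (0.00). Single libraries moved these medians: that of Rar mutants against controls was 0.36 without Rar mutant 3 and 0.34 without Rar mutant 1, that of Dmrt1 het Rar mutants against controls was -0.09 when replicate 1 of the Dmrt1 het Rar mutants was left out and -0.52 when replicate 2 was, and that of Rar-deleted ovaries was 0.06 without Rar mutant 3 and 0.14 without Rar mutant 1. The median of Rar mutants against controls was 0.36 with the higher title numbers alone and 0.34 in limma, that of Dmrt1 het Rar mutants against controls -0.19 with the title-number term, and that of Dmrt1 het Rar mutants against Rar mutants -0.52 in limma. Comparisons with controls share the 5 control libraries, and those with Rar mutants share the 3 Rar mutant libraries, so they are not independent. In whole ovaries, fewer cells of a type and less RNA per cell cannot be told apart. No label says that each library is a separate animal, so the p-values measure the spread between these libraries.

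**Figure D2:**
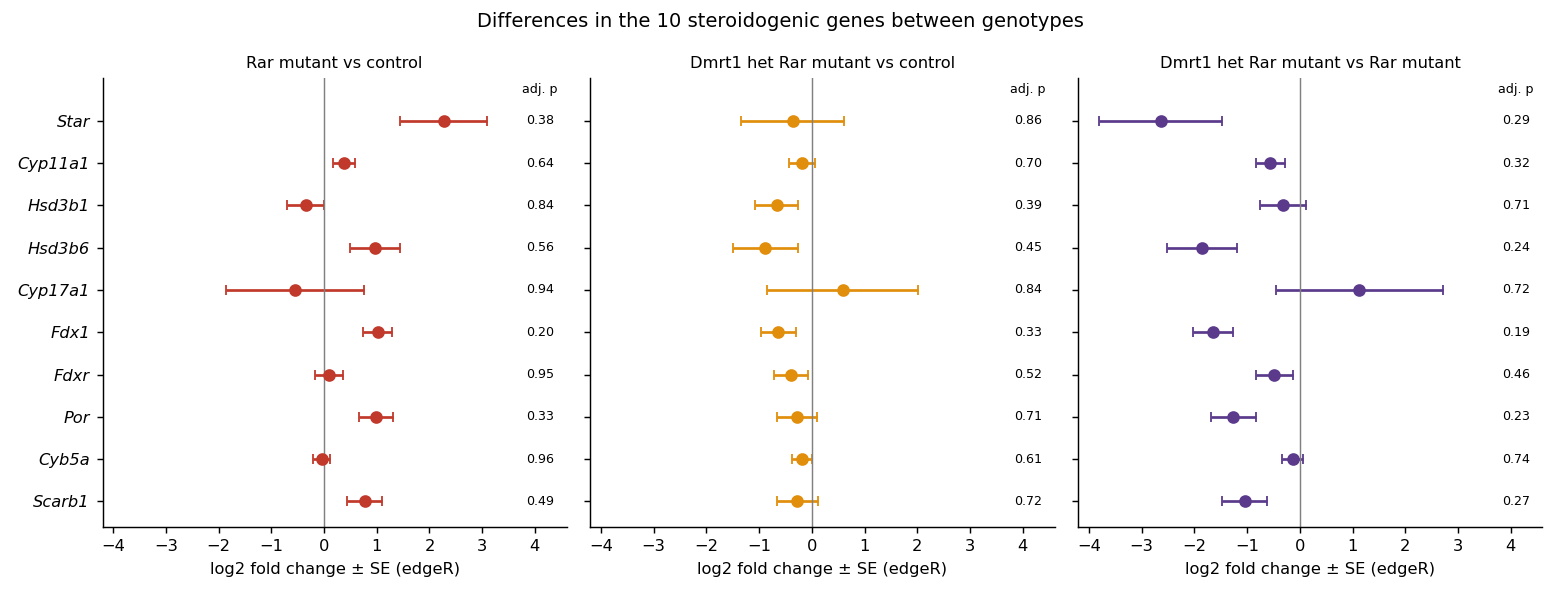
log2 fold change (point) with its standard error (bar) from edgeR for each gene in Rar mutants against controls, Dmrt1 het Rar mutants against controls and Dmrt1 het Rar mutants against Rar mutants, with the adjusted p at the right of each panel. In the first panel Star, Fdx1, Por and Scarb1 lie at 0.77 to 2.27, in the last panel they lie at -2.64 to -1.05, and no adjusted p is under 0.05.

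The mRNA of Star stood apart in single ovaries. Star (ENSMUSG00000031574, chr8:25806555-25815982, plus strand), the carrier whose action limits the acute rate of steroid synthesis, had 152, 249.7 and 1582 FPKM in Rar mutants, 33.5 and 175 FPKM in Dmrt1 het Rar mutants, and 143, 144, 19.7, 181 and 185 FPKM in controls. Rar mutant 3 lay far above every other library, control 3 and Dmrt1 het Rar mutant 1 lay far below the rest, and the groups overlapped. The log2 fold change of Star was 2.27 ± 0.82 (SE) in Rar mutants against controls (edgeR, adjusted p = 0.380), and 0.56 (adjusted p = 0.940) without Rar mutant 3. In Dmrt1 het Rar mutants it was -0.37 ± 0.98 against controls (edgeR, adjusted p = 0.859) and -2.64 ± 1.17 against Rar mutants (edgeR, adjusted p = 0.290), the last being -0.92 without Rar mutant 3.

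Scarb1 (ENSMUSG00000037936, chr5:125277087-125341094, minus strand), the receptor for high-density lipoprotein, followed Star from library to library. It had 98.7, 69.3 and 192 FPKM in Rar mutants, 42.4 and 72.5 FPKM in Dmrt1 het Rar mutants, and 70.8, 65.8, 44.4, 76.0 and 91.2 FPKM in controls. As for Star, Rar mutant 3 was highest and Dmrt1 het Rar mutant 1 and control 3 were lowest; Pearson's r between the 2 genes on log2 CPM (counts scaled to library size) was 0.93 over the 10 libraries, which is a description of libraries that differ in group and title number. Its log2 fold change was 0.77 ± 0.33 in Rar mutants against controls (edgeR, adjusted p = 0.489) and 0.26 without Rar mutant 3. Against Rar mutants, Dmrt1 het Rar mutants were at -1.05 ± 0.43 (edgeR, adjusted p = 0.267).

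Cyp11a1 (ENSMUSG00000032323, chr9:58006411-58027023, plus strand), which makes pregnenolone, ranged over 2.10 times from its lowest to its highest library. It had 1320.5, 1183 and 894 FPKM in Rar mutants, 655 and 873 FPKM in Dmrt1 het Rar mutants, and 1011, 807, 628, 1003 and 887 FPKM in controls. Both Dmrt1 het Rar mutants were below all 3 Rar mutants, and both groups overlapped the controls. Cyp11a1 had a log2 fold change of 0.38 ± 0.21 in Rar mutants against controls (edgeR, adjusted p = 0.640) and of -0.56 ± 0.27 in Dmrt1 het Rar mutants against Rar mutants (edgeR, adjusted p = 0.316). Star in Rar mutant 3 stood at 1.77 times the FPKM of Cyp11a1, while in every other library it stood at 0.0314 to 0.211 times.

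The 2 electron carriers that serve Cyp11a1 differed in pattern. Fdx1 (ENSMUSG00000032051, chr9:51943306-51963556, minus strand), the ferredoxin, had 406, 333 and 601 FPKM in Rar mutants, 129 and 153 FPKM in Dmrt1 het Rar mutants, and 143, 324, 156, 244 and 229 FPKM in controls. All 3 Rar mutants were above all 5 controls, narrowly over control 2, and both Dmrt1 het Rar mutants were below all Rar mutants and within or below the lower controls. Fdx1 was the 1 member of 10 whose Rar mutants and controls did not overlap, where 5.14% of all genes tested did not. Its log2 fold change in Rar mutants against controls was 1.02 ± 0.28 (edgeR, unadjusted p = 0.00374, adjusted p = 0.205; DESeq2, 1.03, adjusted p = 0.0384). It was 0.75 (edgeR, adjusted p = 0.624) without Rar mutant 3, and the difference of group means of log2 FPKM was 1.51 within the lower title numbers (1 library each) and 0.96 within the higher. In Dmrt1 het Rar mutants against Rar mutants it was -1.65 ± 0.37 (edgeR, unadjusted p = 0.00107, adjusted p = 0.185; DESeq2, -1.66, adjusted p = 0.00177). Against controls it was -0.64 ± 0.33 (edgeR, adjusted p = 0.332).

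Fdxr (ENSMUSG00000018861, chr11:115268024-115277050, minus strand), which reduces Fdx1, had 116, 129 and 51.4 FPKM in Rar mutants, 58.8 and 81.1 FPKM in Dmrt1 het Rar mutants, and 68.8, 107, 96.6, 94.1 and 93.3 FPKM in controls. Rar mutant 3, highest for Fdx1, was lowest for Fdxr, and the groups overlapped. Fdxr differed by 0.10 ± 0.27 on the log2 scale in Rar mutants against controls (edgeR, adjusted p = 0.952); the difference of mean log2 FPKM was 0.75 within the lower title numbers and -0.26 within the higher. Fdx1 stood at 11.7 times the FPKM of Fdxr in Rar mutant 3 and at 1.61 to 3.51 times in the other 9 libraries.

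Of the 2 dehydrogenase genes of the set, Hsd3b1 had nearly all the counts. Hsd3b1 (ENSMUSG00000027871, chr3:98852194-98859794, minus strand) is the usual isoform of the mouse ovary and adrenal gland, and had 5430.2, 2116 and 1561 FPKM in Rar mutants, 2479.7 and 2345 FPKM in Dmrt1 het Rar mutants, and 3943, 4151, 2869, 4331 and 3923 FPKM in controls. In 4 of the 5 Rar-deleted ovaries it was below every control, and in Rar mutant 1 it was above every other library. It was the 1 member of 10 whose Dmrt1 het Rar mutants and controls did not overlap, where 28.3% of all genes tested did not. Hsd3b1 had a log2 fold change of -0.35 ± 0.35 in Rar mutants against controls (edgeR, adjusted p = 0.837). Without Rar mutant 1 it was -1.07 (edgeR, adjusted p = 0.0422), and among the higher title numbers alone -1.06 (edgeR, adjusted p = 0.108). In Dmrt1 het Rar mutants it was -0.67 ± 0.41 against controls (edgeR, adjusted p = 0.386) and -0.32 ± 0.43 against Rar mutants (edgeR, adjusted p = 0.711). Across all Rar-deleted ovaries it was -0.47 ± 0.30 (edgeR, adjusted p = 0.655).

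Hsd3b6 (ENSMUSG00000027869, chr3:98805504-98814443, minus strand), known from mouse Leydig cells and the outer adrenal cortex, was near the floor of detection. It had 51, 29 and 12 counts in Rar mutants, 13 and 3 counts in Dmrt1 het Rar mutants, and 14, 20, 16, 13 and 14 counts in controls, or from 0.30 to 3.03 counts per 10000 counts of Hsd3b1. Rar mutants 1 and 2 were above all controls and Dmrt1 het Rar mutant 2 was below them. Fold changes on the log2 scale were 0.97 ± 0.47 in Rar mutants against controls (edgeR, adjusted p = 0.563) and -1.85 ± 0.66 in Dmrt1 het Rar mutants against Rar mutants (edgeR, adjusted p = 0.240). The longest transcripts of both genes are 84.9% identical over 1524 aligned bases, and 38 of the 1753 windows of 50 bases in that of Hsd3b6 (2.17%) also occur in that of Hsd3b1, so a share of these few counts could be misassigned reads of Hsd3b1; this was not tested.

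Cyp17a1 (ENSMUSG00000003555, chr19:46667165-46673172, minus strand), the androgen-forming enzyme of theca and interstitial cells, varied more between ovaries of 1 group than between groups. It had 42.1, 2.56 and 166 FPKM in Rar mutants, 179.7 and 123 FPKM in Dmrt1 het Rar mutants, and 130.1, 3.73, 305, 58.2 and 7.46 FPKM in controls. Rar mutant 2, control 2 and control 5 were the 3 low libraries and the other 7 were well above them, so high and low ovaries occurred in Rar mutants and in controls. The summed level of 6 theca and interstitial markers, which exclude Cyp17a1, was lowest in Rar mutant 2 (52.1 FPKM) and next in control 2 (88.9 FPKM). It was 91.6 to 177 FPKM in the other Rar mutants, 112 to 181 FPKM in Dmrt1 het Rar mutants and 120.0 to 302 FPKM in the other controls. Most of this sum was Lhcgr, with 31.9 FPKM in Rar mutant 2, 66.9 FPKM in control 2 and 276 FPKM in control 1. Insl3 and Ptch1 of the same list were not lowest in Rar mutant 2. The part of this sum in the spread of Cyp17a1 was not tested. The log2 fold change was -0.54 ± 1.31 in Rar mutants (edgeR, adjusted p = 0.941) and 0.59 ± 1.43 in Dmrt1 het Rar mutants (edgeR, adjusted p = 0.844), both against controls. With errors this wide, a difference of several fold was not detectable.

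Por (ENSMUSG00000005514, chr5:135670033-135735326, plus strand), the reductase of the microsomal cytochromes, had 16.3, 23.8 and 54.9 FPKM in Rar mutants, 11.9 and 14.2 FPKM in Dmrt1 het Rar mutants, and 12.5, 20.4, 15.5, 17.3 and 13.9 FPKM in controls. Rar mutant 3 was far above the next library, Rar mutant 1 was within the controls, and both Dmrt1 het Rar mutants were below all Rar mutants. The log2 fold change was 0.98 ± 0.32 in Rar mutants against controls (edgeR, unadjusted p = 0.0108, adjusted p = 0.326). It was 1.29 (edgeR, adjusted p = 0.0436) without Rar mutant 1 and 0.32 (edgeR, adjusted p = 0.835) without Rar mutant 3. In Dmrt1 het Rar mutants it was -1.26 ± 0.42 against Rar mutants (edgeR, adjusted p = 0.231) and -0.28 ± 0.38 against controls (edgeR, adjusted p = 0.709).

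Cyb5a (ENSMUSG00000024646), the partner of Cyp17a1, had the narrowest range of the 10 genes over the 10 libraries, while Hsd3b1 had the lowest coefficient of variation among controls. It had 245, 213 and 255 FPKM in Rar mutants, 192 and 237 FPKM in Dmrt1 het Rar mutants, and 213, 225, 213, 275 and 291 FPKM in controls. The groups overlapped throughout, and the log2 fold changes were -0.05 ± 0.16 in Rar mutants and -0.18 ± 0.19 in Dmrt1 het Rar mutants against controls (edgeR, adjusted p = 0.960 and 0.611). Dmrt1 het Rar mutants and Rar mutants did not overlap for 3 members (Cyp11a1, Fdx1 and Por), where 39.2% of all genes tested did not, and Rar-deleted and control ovaries overlapped for every member, where 1.72% of all genes did not. Removing Rar mutant 1 from the comparison of Rar mutants with controls gave calls for 2 of 10 members, Hsd3b1 lower and Por higher, where 1.88% of all genes were called; with the higher title numbers alone 0 of 10 were called, where 0.724% of all genes were.

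**Figure D3:**
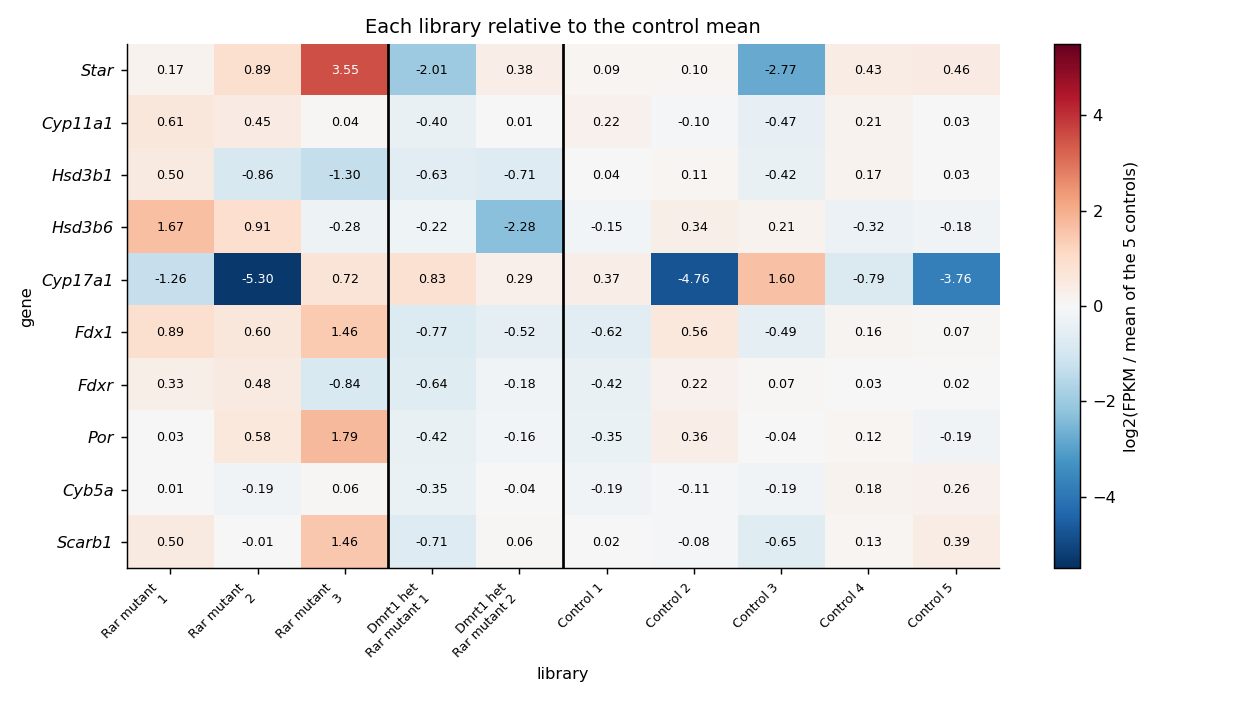
log2 of the FPKM of each gene (down) in each library (across) over the mean of the 5 controls, for Rar mutants, Dmrt1 het Rar mutants and controls from left to right. Star, Fdx1, Por and Scarb1 are at 1.46 to 3.55 in Rar mutant 3 while Hsd3b1 and Fdxr are at -1.30 and -0.84 there, and Dmrt1 het Rar mutant 1 is lowest for 4 genes.

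No ovary had the highest level of more than 4 of the 10 members. Rar mutant 3 had the highest level of 4 members (Star, Fdx1, Por and Scarb1) and the lowest of 2 (Hsd3b1 and Fdxr). Rar mutant 1 had the highest level of 3 other members (Cyp11a1, Hsd3b1 and Hsd3b6), and 9 of the 10 were above the control mean in it. Dmrt1 het Rar mutant 1 had the lowest level of 4 (Fdx1, Por, Cyb5a and Scarb1), and 1 of the 10 members was above the control mean in it. Across the 10 libraries Pearson's r on log2 CPM was 0.83 for Fdx1 with Por, 0.79 for Fdx1 with Scarb1, 0.77 for Star with Por and 0.76 for Star with Fdx1, against -0.66 for Cyp17a1 with Fdxr and -0.59 for Hsd3b1 with Por. These are descriptions, given without a test, of libraries that share groups and title numbers.

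The 4 ratios within a library, which do not depend on how libraries were scaled, were compared between Rar-deleted and control ovaries with an exact two-sided permutation test of log2 FPKM ratios, adjusted over the 4. The smallest p that 5 against 5 libraries allow is 0.00794. The log2 difference was 0.57 for Hsd3b6 over Hsd3b1 (exact permutation p = 0.397, adjusted p = 0.614), 0.36 for Cyp17a1 over Cyp11a1 (p = 0.849, adjusted p = 0.849), 0.78 for Star over Cyp11a1 (p = 0.460, adjusted p = 0.614) and 0.55 for Fdx1 over Fdxr (p = 0.333, adjusted p = 0.614). None differed by more than the spread between libraries. For Hsd3b6 over Hsd3b1, the mean log2 ratio was -12.10 ± 0.40 in Rar mutants, -14.00 ± 1.40 in Dmrt1 het Rar mutants and -13.43 ± 0.44 in controls (SD), with all 3 Rar mutants above all 5 controls. That split was seen after the values were known and was not tested.

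**Figure D4:**
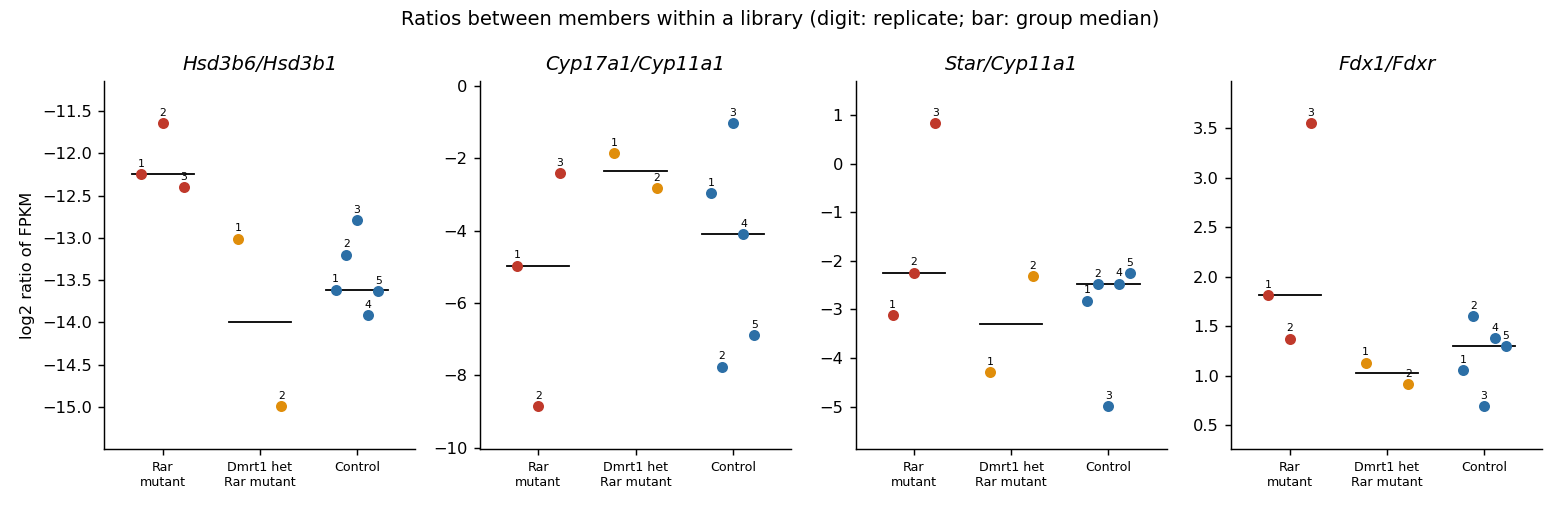
log2 ratio of FPKM for 4 pairs of genes in each library of the 3 groups; the digit is the replicate and the bar the group median. Rar mutant 3 is highest for Star over Cyp11a1 and for Fdx1 over Fdxr, and control 3 is lowest for both.

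The summed markers of ovulation and of the adrenal cortex were high beside the members that were high in Rar mutant 3. In the ovulation list, Rar mutant 3 had 46.1 FPKM of Ptgs2, the prostaglandin synthase of the preovulatory follicle, 15.7 FPKM of the progesterone receptor gene Pgr and 858 FPKM of Sult1e1, an oestrogen sulfotransferase. These genes were at or under 0.878 FPKM in the other 9 libraries. Adamts1 and Edn2 of the same list were instead highest in Rar mutant 2, at 115.6 and 23.1 FPKM. They had 32.1 and 0.830 FPKM in Rar mutant 3, where all other genes of the list were highest. Adamts1 made up most of the ovulation sum of Rar mutant 2, and Sult1e1 most of that of Rar mutant 3. The adrenal cortex list (6 of 6 in the table) summed to 102 to 577 FPKM in Rar mutants, 19.3 to 27.5 FPKM in Dmrt1 het Rar mutants and 19.8 to 75.5 FPKM in controls. Nearly all of this was Mrap, an accessory protein of the corticotropin receptor, with 101, 193 and 367 FPKM in Rar mutants, and Akr1b7, an aldose reductase, with 0.308, 191 and 206 FPKM. The defining adrenal genes Cyp21a1 and Mc2r were at or under 0.106 and 0.374 FPKM in every library, while Cyp11b1, the last enzyme of corticosterone synthesis, had 0.760, 15.6 and 4.0 FPKM in Rar mutants, 0.0260 and 0.0690 FPKM in Dmrt1 het Rar mutants and 0 to 0.189 FPKM in controls. The corpus luteum list summed to 510.1 to 1553 FPKM in Rar mutants, 772 to 944 FPKM in Dmrt1 het Rar mutants and 143 to 2149 FPKM in controls. The granulosa cell list summed to 1210 to 2195 FPKM in Rar mutants, 2081 to 2250 FPKM in Dmrt1 het Rar mutants and 1253 to 3751 FPKM in controls. The surface epithelium list summed to 55.0 to 116 FPKM in Rar mutants, 37.0 to 41.0 FPKM in Dmrt1 het Rar mutants and 61.3 to 158 FPKM in controls. The erythroid list summed to 633 to 3692 FPKM in Rar mutants, 497 to 792 FPKM in Dmrt1 het Rar mutants and 396 to 2201 FPKM in controls. In Dmrt1 het Rar mutants against Rar mutants the median of the members was -0.80, and 16.9% of all genes had an unadjusted p under 0.05 in either direction. The genes lower at that p were 5 of 6 for surface epithelium (median log2 fold change -1.27), 3 of 5 for erythroid cells (-1.82), 8 of 10 for ovulation (-4.92) and 3 of 4 tested for the adrenal cortex (-5.19). The other adrenal gene tested, Mc2r, was higher at that p (0.374 and 0.362 FPKM against 0.028 to 0.227 FPKM). Of the granulosa cell genes 3 of 7 were higher (0.83). With a term for the title numbers, 1 of 6 surface epithelium (-0.51), 0 of 5 erythroid (-0.39) and 0 of 10 ovulation genes (-2.22) were lower. Of the adrenal cortex genes 2 of 4 were lower and 0 higher (-2.43), and of the granulosa cell genes 3 of 7 were higher (1.19). In that fit 1770 of all 20570 genes were under 0.05. Against controls and without that term, 6 of 6 surface epithelium genes were lower at that p in Dmrt1 het Rar mutants (-1.65). In Rar mutants 10 of 10 ovulation genes were higher (5.26). The shares of all genes at that p, in either direction, were 17.3% and 9.45%. With the term the counts were 5 of 6 (-1.10) and 8 of 10 (4.90), where 1355 and 2879 of all 20570 genes were. The ovulation sum of Rar mutant 1 (10.2 FPKM) lay within the controls (6.95 to 14.3 FPKM), while Rar mutants 2 and 3 were above them. Ptx3 was at 0.5 and 0.826 FPKM for Rar mutants 1 and 2, below all controls (0.971 to 1.995 FPKM). Its higher group level came from Rar mutant 3 (28.45 FPKM). None of these marker genes passed an adjusted p of 0.05 in the main edgeR fits. With a term for the title numbers, 3 of 4 adrenal cortex genes tested passed in Rar mutants against controls, all higher, where 85 of 20570 genes passed. In Rar-deleted ovaries against controls 2 of 3 tested passed with that term, both higher, where 40 of 18954 genes did. The part of these markers in the members' levels was not tested.

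**Figure D5:**
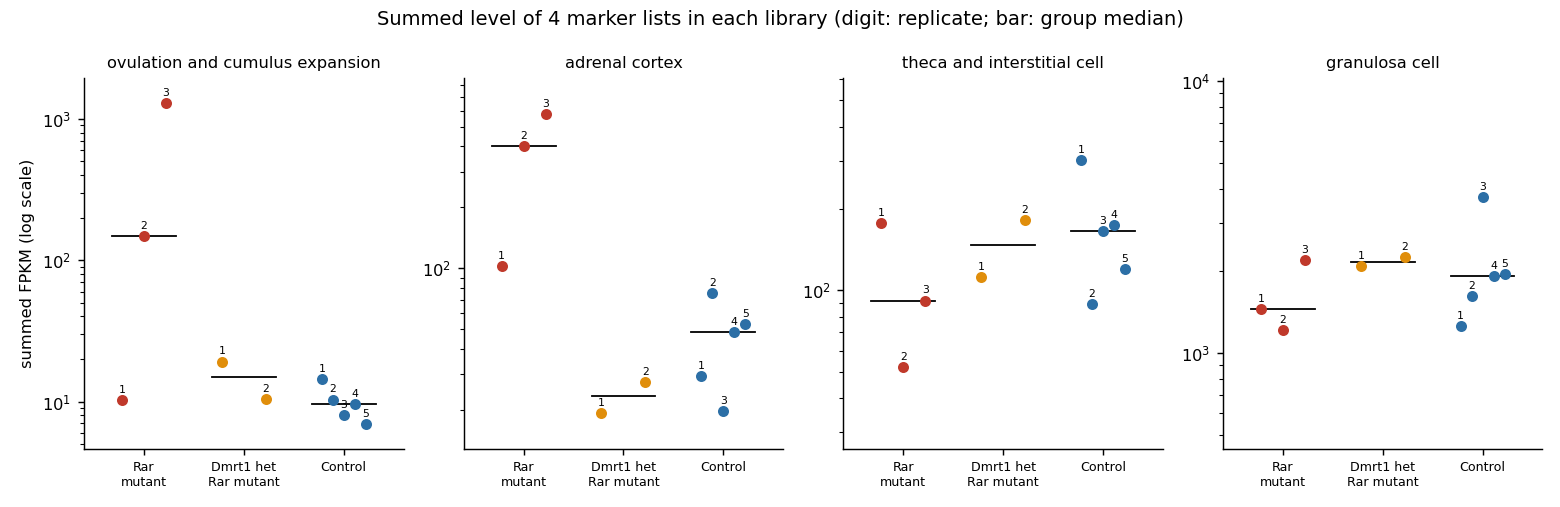
Summed FPKM (log scale) of the marker lists for ovulation, adrenal cortex, theca and interstitial cells and granulosa cells in each library of the 3 groups; the digit is the replicate and the bar the group median. The ovulation sum reaches 1288 FPKM in Rar mutant 3, and the adrenal cortex sum is higher in all 3 Rar mutants (102 to 577 FPKM) than in every control (19.8 to 75.5 FPKM). In Rar mutant 1 the adrenal cortex sum is nearly all Mrap (101 FPKM), and Akr1b7 (0.308 FPKM) is within the controls (0.213 to 0.576 FPKM).

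Among 17 hormone receptors and transcription factors known to control steroidogenic genes, 0 passed in any comparison in edgeR. At an unadjusted p under 0.05 there were 3 in Rar mutants and 7 in Dmrt1 het Rar mutants against controls. There were 5 between the 2 kinds of mutant and 3 in the pooled comparison. The shares of all genes at that p, in this order, were 9.45%, 17.3%, 16.9% and 8.47%. In Rar mutants against controls 10 log2 fold changes were positive and 7 negative (median 0.03). Nr5a1, which activates most of the genes described here and whose promoter drives the Cre, had 81.7, 62.5 and 66.7 FPKM in Rar mutants, 94.2 and 84.1 FPKM in Dmrt1 het Rar mutants, and 46.7, 43.9, 74.1, 38.6 and 38.9 FPKM in controls. Its log2 fold change in Rar-deleted ovaries was 0.68 ± 0.21 (edgeR, adjusted p = 0.450), with only control 3 among the Rar-deleted values. Nr0b1, a repressor of Nr5a1 action, had 0.654, 1.34 and 2.28 FPKM in Rar mutants, 2.79 and 1.88 FPKM in Dmrt1 het Rar mutants, and 3.44 to 5.91 FPKM in controls. The Rar-deleted and control values of Nr0b1 did not overlap, where 1.72% of all genes tested did not. The log2 fold change of Nr0b1 was -1.36 ± 0.33 (edgeR, adjusted p = 0.272). Crem, a cAMP-responsive factor, had 30.1 FPKM in Rar mutant 3 and 2.24 to 3.82 FPKM in the other 9 libraries, and its log2 fold change in Rar mutants against controls was 2.22 ± 0.58 (edgeR, adjusted p = 0.192).

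Of 13 later steroid-converting enzymes 11 were tested and 0 passed in any comparison in edgeR. At an unadjusted p under 0.05 there were 5 in Rar mutants and 1 in Dmrt1 het Rar mutants against controls. There were 7 in Dmrt1 het Rar mutants against Rar mutants (3 higher and 4 lower) and 2 in the pooled comparison. The shares of all genes at that p, in this order, were 9.45%, 17.3%, 16.9% and 8.47%. The smallest p in Rar mutants against controls belonged to Cyp11b1, given above, at a log2 fold change of 6.44 ± 0.98 (edgeR, adjusted p = 0.0557). With a term for the title numbers Cyp11b1 passed, at 6.70 in Rar mutants (edgeR, adjusted p = 0.0176) and 6.66 in Rar-deleted ovaries (edgeR, adjusted p = 0.0407), both against controls. Hsd17b1, which completes oestradiol synthesis in granulosa cells, had 142, 114 and 102 FPKM in Rar mutants, 204 and 218 FPKM in Dmrt1 het Rar mutants, and 128 to 263 FPKM in controls. Its log2 fold change was -0.78 ± 0.22 in Rar mutants against controls (edgeR, adjusted p = 0.240) and 0.83 ± 0.27 in Dmrt1 het Rar mutants against Rar mutants (edgeR, adjusted p = 0.220). Hsd11b1, a reductase of glucocorticoids, was at 0.235 to 1.38 FPKM in Rar mutants, 0.157 to 0.225 FPKM in Dmrt1 het Rar mutants and 0.119 to 0.253 FPKM in controls.

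Of 13 genes of cholesterol delivery and ester storage 0 passed in any comparison in edgeR. At an unadjusted p under 0.05 there were 0 in Rar mutants and 4 in Dmrt1 het Rar mutants against controls. There were 3 between the 2 kinds of mutant and 0 in the pooled comparison. The shares of all genes at that p, in this order, were 9.45%, 17.3%, 16.9% and 8.47%. In Rar mutants against controls 8 log2 fold changes were positive and 5 negative (median 0.06). In Dmrt1 het Rar mutants against controls 2 were positive and 11 negative (median -0.15). Stard5, a cytosolic relative of Star, had 6.42, 7.82 and 5.97 FPKM in Rar mutants, 2.50 and 3.51 FPKM in Dmrt1 het Rar mutants, and 3.24 to 7.35 FPKM in controls. Its log2 fold change in Dmrt1 het Rar mutants against Rar mutants was -1.15 ± 0.32 (edgeR, adjusted p = 0.206). Npc2, which exports cholesterol from lysosomes, was at -0.65 ± 0.24 in Dmrt1 het Rar mutants against controls (edgeR, adjusted p = 0.249). Of 9 relatives of the dehydrogenases and electron carriers 5 were in the table, 3 were tested (Cyb5b, Cyb5r1 and Cyb5r3) and 0 passed, also at an unadjusted p under 0.05.

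The profile of the set was matched to all other genes by Pearson's r with the mean z-score of the 10 members on log2 CPM over 10 libraries, among 18944 genes. The most alike were Tiprl (0.95), Atp6ap2 (0.94), Dgat1 (0.94), Rspo1 (0.93), Gatad1 (0.90), Spryd7 (0.89), Aldh1l1 (0.89) and Skint6 (0.89). For single members the closest genes were Mgat2 for Star (0.96), Vapa for Fdx1 (0.96), Slc25a45 for Fdxr (0.97), Col14a1 for Hsd3b1 (0.96), Slc33a1 for Cyp11a1 (0.93), Ythdf2 for Cyp17a1 (0.92), Camk1g for Hsd3b6 (0.95), Plac1 for Cyb5a (0.89), Gm12418 for Scarb1 (0.96) and the unnamed ENSMUSG00000110926 for Por (0.97). With 10 libraries and this many genes such values are a description only. The members themselves were left out of both searches. Reads of Por and Cyb5a could not be told apart from those of annotated antisense genes if strand was not used in counting, which is not stated, and Cyp11a1 and Scarb1 each overlap a predicted gene on the same strand.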

How the data were processed

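RNA was taken from Trizol homogenates of whole gonads and a stranded kit was used for the polyA libraries, per the labels' protocols. Per the submitters' processing notes, Trimmomatic 0.32, STAR 2.4.2a, SAMtools 1.0 and DESeq2 1.12.3 were used on GRCm38 (mm10); the counting tool and its strand setting are not given in the sources used here. The authors deposited a raw count and an FPKM value per Ensembl gene and library, and the values themselves show that the FPKM carry a median-of-ratios library scaling. Their deposited table of 185 genes, with a mean normalised signal, a log2 fold change, a Wald score and a p-value per the file headers, holds none of the 10 genes and was not used.

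Counts were tested in R 4.3.3 with edgeR 4.0.16 (quasi-likelihood test, TMM, filterByExpr, robust dispersion, two-sided). Rar-deleted and control ovaries were compared in a 2-group fit of 18954 genes, and the labelled groups in a 3-group fit of 20570 genes that share the estimate of spread. All 10 genes passed the filter on low counts. Adjusted p under 0.05 (Benjamini-Hochberg over all genes tested) was the threshold, and each SE is the size of the log2 fold change over the square root of its F statistic. The edgeR fits were tested on simulated counts with known changes. DESeq2 1.42.0, limma 3.58.1 on log2(FPKM + 1), RLE normalisation, no filter, a replicate block, a term for the title numbers, the higher title numbers alone, the 2 groups alone and leaving out each library were tried, as were counts + 0.5 for the ratios. The n are libraries, and depth limits only Hsd3b6, where a count of 0 would allow 3 counts. Gene positions came from GENCODE M21 (GRCm38) and promoters from RefSeq.

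The members, the gene lists and the settings were chosen with earlier results of these data known. Each member was named in each comparison, and from each pathway list the called genes, otherwise up to 3 with the smallest p, of which a part is printed. Marker lists were summed, and the 8 genes most alike the set and 1 per member were named.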

Additional observations from a re-analysis of the deposited data

Results flagged for a closer look

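In groups of 5 libraries, single libraries lay far from the rest for 6 of the 28 sets of values checked with Dixon's test. Chance alone flags about 1 in 20 only if sets are independent and values normally distributed. The FPKM were not log-transformed, the Rar-deleted group pools Rar mutants with Dmrt1 het Rar mutants, and Star also enters its ratio to Cyp11a1. The number flagged can therefore not be set against that rate. Among Rar-deleted ovaries, Rar mutant 3 was far above the others for Star, at 1582 FPKM with the next at 249.7, and for Por, at 54.95 FPKM with the next at 23.8. Rar mutant 1 was far above the other Rar-deleted ovaries for Hsd3b1, at 5430 FPKM with the next at 2480 FPKM. Among controls, control 3 was far below the others for Star, at 19.75 FPKM with the next at 143, for Hsd3b1, at 2869 FPKM with the next at 3923, and for the log2 ratio of Star to Cyp11a1, at -4.992 with the next at -2.82.

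Beside these values, Rar mutant 3 had the highest summed ovulation markers (1288 FPKM) and erythroid markers (3692 FPKM) of the 10 libraries. Control 3 had the highest granulosa cell markers (3751 FPKM) and the lowest corpus luteum markers (143 FPKM). The part of any of these in the members' levels was not tested.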

How the results depend on the processing

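All 40 fold changes of the members were recomputed under each alternative, 660 values in all. Of these, 4 crossed the threshold, all into a call: Fdx1 under DESeq2 in Rar mutants against controls and in Dmrt1 het Rar mutants against Rar mutants (1 member called in each), and Hsd3b1 and Por without Rar mutant 1, so that leaving out 1 library gave 0 to 2 members called in Rar mutants against controls. In 29 the sign differed from the reported fit, none of them where either fit had an unadjusted p under 0.05. All 48 recomputed ratio differences stayed above an adjusted p of 0.05. That of Cyp17a1 to Cyp11a1 was -0.48 within title-number sets and -0.44 to 1.53 with 1 library left out (negative without Rar mutant 3, Dmrt1 het Rar mutant 1, control 2 or control 5).

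The counts over all genes moved more, and the cause was not tested. DESeq2 called 180 genes in Rar-deleted ovaries against controls, 372 in Rar mutants and 329 in Dmrt1 het Rar mutants against controls, and 626 in Dmrt1 het Rar mutants against Rar mutants, beside 21, 2, 4 and 0 in edgeR. A term for the title numbers gave 40, 85, 1 and 0 genes, the higher title numbers alone gave 142 in Rar mutants, and the 2 groups alone gave 1. Leaving out 1 library gave 5 to 52 genes in Rar-deleted ovaries (52 without control 1, 5 to 11 without any other single library except Rar mutants 1 and 3), 1 to 384 in Rar mutants (384 without Rar mutant 1, 7 without control 2, 1 without control 3, control 5 or Rar mutant 3), 0 to 364 in Dmrt1 het Rar mutants against controls (364 without control 1, 0 to 2 without controls 2, 3 or 5, either Dmrt1 het Rar mutant or Rar mutant 3) and 0 to 335 in Dmrt1 het Rar mutants against Rar mutants (335 without Rar mutant 1, 1 without control 1). Where 1 Dmrt1 het Rar mutant was left out, the lone library was assumed to vary like the other groups.

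Whether replicate numbers pair the libraries was not tested, and only correlations of deviations from the group means were taken. For Rar mutants with controls these were 0.435, 0.016 and 0.243 at the same number and -0.397 to 0.242 at different numbers. Same-numbered values were 0.078 and 0.068 for Dmrt1 het Rar mutants with controls, and -0.087 and -0.056 for Dmrt1 het with other Rar mutants. Deviations of the 2 Dmrt1 het Rar mutants mirror each other, so their values cannot decide a pairing. A replicate block gave 0, 2, 0 and 0 genes called in the 4 comparisons, in the order above, and 0 members.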
